A study of Homo sapiens with 24 samples.

Results

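The 49 interferon-stimulated genes described here were taken by symbol: each of 49 listed gene names was looked up in the name column of a table of 63677 genes, and each matched 1 row. The rule reads no measured value, but the list was drawn up with earlier results of these data known. They were grouped by role: 6 genes of the ISG15 conjugation system, 4 restriction factors of membranes and budding, 2 small membrane proteins (IFI27 and IFI6), 4 IFIT RNA-binding proteins, 7 enzymes acting on RNA, 4 of the MX GTPases and the RSAD2 and CMPK2 pair, 4 of the DDX60 and SAMD9 pairs, 4 of the PARP and DTX3L group, 6 TRIM, nuclear body and DNA-binding proteins and 8 others. Of the 49 genes, 47 passed the filter on low values, which 19377 genes passed in all, and were tested. The 2 others, RSAD2 and CMPK2, never exceeded 0.0983 and 0.468 RPKM (reads per kilobase of gene, relative to all reads of the library). Of the 47, 11 passed the filter through SNU475 alone, where they were high (HERC6, IFITM1, OAS2, DDX60, DDX60L, SAMD9, SAMD9L, IFI44, IFI44L, XAF1 and EPSTI1), and reached at most 0.0193 to 0.392 RPKM in the other lines. A higher level of these 11 in SNU475 was fixed by that filter, which also favoured a larger change there. Counts over the 47 that set SNU475 against another line are therefore descriptions and not those of all 49.

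The study treated 3 human liver cancer lines from the American Type Culture Collection, HepG2, SNU398 and SNU475, all labelled hepatocellular carcinoma and wildtype. Each line received Dulbecco's phosphate-buffered saline (DPBS, the vehicle), decitabine at 100 nM, GSK-126 at 500 nM or both drugs, dosed daily for 3 days. HepG2 and SNU398 were harvested on day 14 and SNU475 on day 21, so line and harvest day cannot be told apart wherever SNU475 is set against another line. Each of the 12 groups had 2 libraries, A and B, and the 3 treatments of a line share its 2 DPBS libraries. The labels do not say whether A and B were separate cultures; where they were not, a p-value reflects only how far libraries differ, which may be technical.

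Interferons bind receptors that switch on the kinases JAK1 and TYK2, and the factors these activate, STAT2 and IRF9 among them, form a complex that binds a short promoter element, the interferon-stimulated response element, and turns on antiviral genes. Interferon gamma acts at another element and raises an overlapping set. Decitabine is built into DNA and captures the methyltransferases there, so that methylation is lost as cells divide; GSK-126 blocks EZH2, the enzyme that methylates lysine 27 of histone H3. Inhibitors of DNA methylation are known to raise interferon-stimulated genes in cancer cells. The series title names a joint action of both kinds of inhibitor on gene activation, so each drug, the combination and the departure of the combination from the product of the single effects were compared for these genes.

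The 8 promoter stretches printed here belong to members with large changes and were chosen because each holds the core of the response element, so their likeness in it is given by that choice; they show where it lies and what stands around it. Each is 60 bases, 5′ to 3′ on the gene's strand, from RefSeq on GRCh38.p14, and lies wholly before the start site in that table, the first of 2 listed for IFI27. Capitals mark the core of the element, GAAA, any 2 bases, GAAA, on either strand, where overlapping matches run together.
ISG15: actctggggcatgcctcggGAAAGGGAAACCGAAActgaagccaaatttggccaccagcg
IFITM3: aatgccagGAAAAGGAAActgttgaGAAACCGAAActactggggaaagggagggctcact
BST2: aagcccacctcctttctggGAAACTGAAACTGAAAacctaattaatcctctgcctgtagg
LGALS3BP: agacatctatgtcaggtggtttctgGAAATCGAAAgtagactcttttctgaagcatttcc
IFI27: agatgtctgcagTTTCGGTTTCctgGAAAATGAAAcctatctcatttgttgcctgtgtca
IFI6: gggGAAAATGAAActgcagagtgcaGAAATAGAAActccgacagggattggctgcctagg
IFIT1: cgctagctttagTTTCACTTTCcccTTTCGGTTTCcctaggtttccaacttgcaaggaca
EPSTI1: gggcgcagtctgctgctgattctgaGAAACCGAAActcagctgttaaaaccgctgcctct
The stretches lie at chr1:1013365-1013424 (plus strand) for ISG15, chr11:320861-320920 (minus strand) for IFITM3, chr19:17405720-17405779 (minus strand) for BST2, chr17:78979947-78980006 (minus strand) for LGALS3BP, chr14:94110616-94110675 (plus strand) for IFI27, chr1:27672251-27672310 (minus strand) for IFI6, chr10:89392495-89392554 (plus strand) for IFIT1 and chr13:42992257-42992316 (minus strand) for EPSTI1. The table of promoters held a window of 300 bases (250 before the start site and 50 after it) for 42 of the 49 members, and not for USP18, IFITM2, IFIT2, OAS2, OASL, MX2 and TRIM22. The core stood on either strand in 28 of the 42 windows (66.7%), against 498 of the 15322 windows of all genes (3.25%). It was not in the windows of the other 14, OAS1, SAMD9L, IFI16, IFI35 and XAF1 among them. The members' windows held a median of 10 CpG dinucleotides, the site of DNA methylation, against 22 in all windows, at a median GC content of 55.7% against 62.3%. These are matches of letters and do not show binding or methylation.

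Between 32600000 and 60370000 reads stood behind the RPKM of a library, with the HepG2 combination libraries lowest at 32600000 and 34410000. The hepatocyte markers (8 genes, among them ALB and APOA1) summed to 6669 to 11710 RPKM in HepG2 but to 0.593 to 47.2 in SNU398 and 1.94 to 71.4 in SNU475, so that the labelled hepatocellular origin was far weaker in marker RNA there. FGB, the fibrinogen beta chain, was nevertheless at 13.5 and 13.2 RPKM in the SNU475 DPBS libraries, against 184.8 and 189.3 in those of HepG2. The highest hepatocyte sums were not shared by both libraries of a group. They were 47.2 and 0.873 RPKM in SNU398 decitabine A and B, and 71.4 and 16.6 in SNU475 DPBS A and B. The cause was not tested. Immune markers (9 genes) summed to 0.393 to 2.10 RPKM in SNU398, where decitabine B was lowest and decitabine A highest, and 4.53 to 14.0 in SNU475. In HepG2 they summed to 173.2 to 451.6, nearly all of it LYZ. Over all libraries the lymphocyte markers CD3E, CD2, CD79A and NKG7 reached 0.0465, 0.0193, 0.548 and 0.211 RPKM, the leukocyte marker PTPRC 0.584 and the macrophage marker CD68 0.641, while MS4A1 was at 0. The monocyte marker CD14 reached 12.2. Endothelial markers (4 genes) summed to at most 0.687 RPKM in any library. In bulk RNA, a change in the share of responding cells and a change in RNA per cell cannot be told apart.

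With DPBS alone, the 3 lines held these genes at very different levels, and SNU475 was the highest in most. In SNU475 41 of the 49 members reached 1 RPKM and 2 lay under 0.1, with a median of 3.12. HepG2 had 25 members at 1 RPKM or more, 14 under 0.1 and a median of 1.11, and SNU398 had 20, 18 and 0.227. Against HepG2, SNU475 was higher in 36 of the 47 tested members and lower in 9 (limma, adjusted p under 0.05), where 42.4% of all genes tested were higher and 36.9% lower, and the members' median log2 difference was 1.16 against 0.04 over all genes. Against SNU398, SNU475 was higher in 40 and lower in 4, with 40% and 38.1% of all genes, and the median difference was 1.60 against 0.01. The 47 include the 11 members that passed the filter through SNU475 alone, so these counts and medians of SNU475 are descriptions. SNU398 against HepG2 had 11 members higher and 26 lower, with 40% and 36.5% of all genes, and a median difference of -0.31 against 0.01. Without scaling of the libraries, the share of higher calls for SNU398 against HepG2 went from 52.3% to 64.2% and the median over all genes from 0.01 to 0.22, and that for SNU475 against HepG2 went from 0.04 to 0.15.

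**Figure D1:**
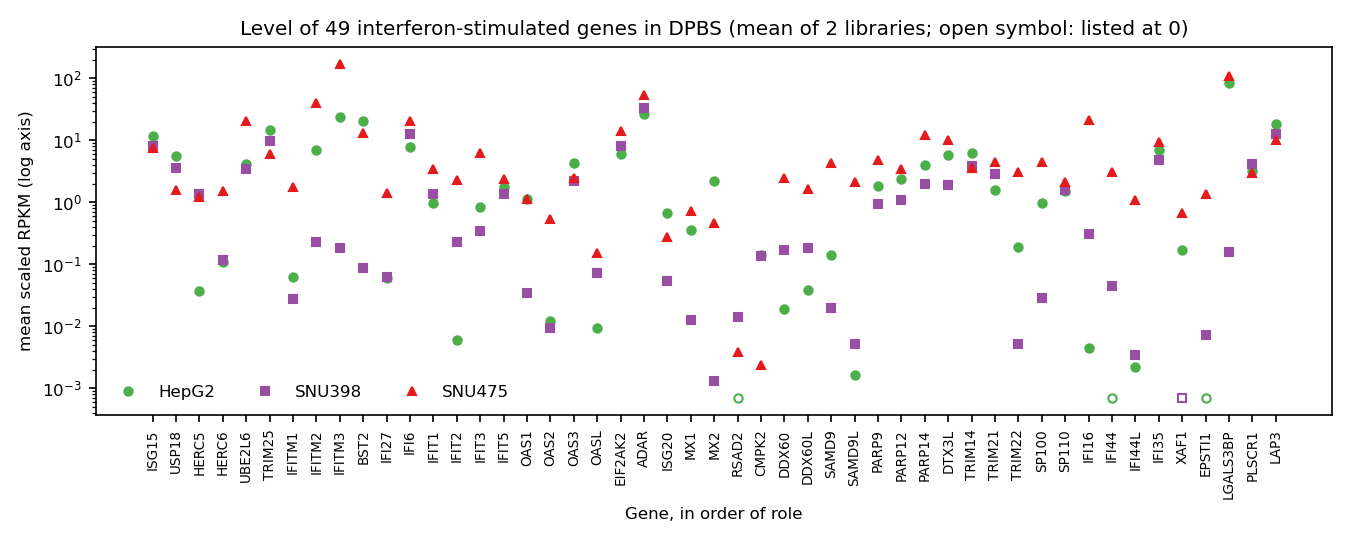
Level of each of the 49 genes in the DPBS libraries of HepG2, SNU398 and SNU475, in scaled RPKM on a log axis, where points are means of 2 libraries. SNU475 holds 41 of the 49 genes at 1 RPKM or more, HepG2 25 and SNU398 20, and LGALS3BP, IFITM3, IFITM2 and BST2 are among those under 1 RPKM in SNU398 alone.

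Among the widest gaps between lines were those of membrane and secreted proteins. LGALS3BP, a secreted glycoprotein that binds galectins, stood at 86.5 and 82.3 RPKM in the HepG2 DPBS libraries and 108.6 and 111.2 in SNU475, but at 0.176 and 0.141 in SNU398, a log2 difference of -7.01 (SE 0.04) from HepG2 and of 7.39 (SE 0.04) between SNU475 and SNU398. IFITM3, which blocks the fusion of viruses with endosomes, stood at 24.3 and 23.0 RPKM in HepG2, 0.224 and 0.136 in SNU398 and 168.3 and 175.1 in SNU475. BST2, the tetherin that holds budding particles on the cell, was at 20.6 and 20.1 RPKM in HepG2, 0.0772 and 0.0959 in SNU398 and 13.6 and 13.1 in SNU475. For all 3 genes the SNU398 libraries lay under every library of the other lines, without overlap. The log2 differences of SNU398 from HepG2 were -5.15 for IFITM3 and -5.15 for BST2. The members higher in SNU398 than in HepG2 were led by the ISG15 ligase HERC5 (1.79, and 3.42 with a pseudocount of 0.1 or 1.19 with 1), the antibody receptor TRIM21 (0.70), the DNA sensor IFI16 (0.69, 1.98 and 0.38), IFI6 (0.64, and 0.98 without scaling) and IFIT2 (0.53, 1.63 and 0.29).

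SNU475 stood far above both other lines in IFI16, at 21.1 and 21.5 RPKM against 0.00444 and 0.00439 in HepG2 and 0.317 and 0.306 in SNU398. The log2 difference was 5.43 (SE 0.06, adjusted p = 1.1e-18) from HepG2 and 4.75 from SNU398. From HepG2, SNU475 also differed most in SAMD9 (2.91), a restriction factor of poxviruses, IFI44 (2.85, and 5.01 with a pseudocount of 0.1), IFITM3 (2.83) and the helicase DDX60 (2.52, and 4.43). Of these, SAMD9, IFI44 and DDX60 passed the filter through SNU475 alone, so their higher level there was fixed by it and is a description. From SNU398 it differed most in IFITM3 (7.99), LGALS3BP, IFITM2 (5.77), IFI16 and BST2 (4.56). USP18, the protease that removes ISG15 from proteins and damps the receptor, went the other way, at 5.96 and 5.24 RPKM in HepG2, 3.62 and 3.52 in SNU398 and 1.62 and 1.60 in SNU475 (-1.53 and -0.95 on the log2 scale). The ubiquitin ligase TRIM25 was likewise lower in SNU475 (-1.21 from HepG2 and -0.64 from SNU398), as were MX2, a GTPase that acts on HIV capsids, from HepG2 (-1.48) and the scramblase PLSCR1 from SNU398 (-0.40).

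**Figure D2:**
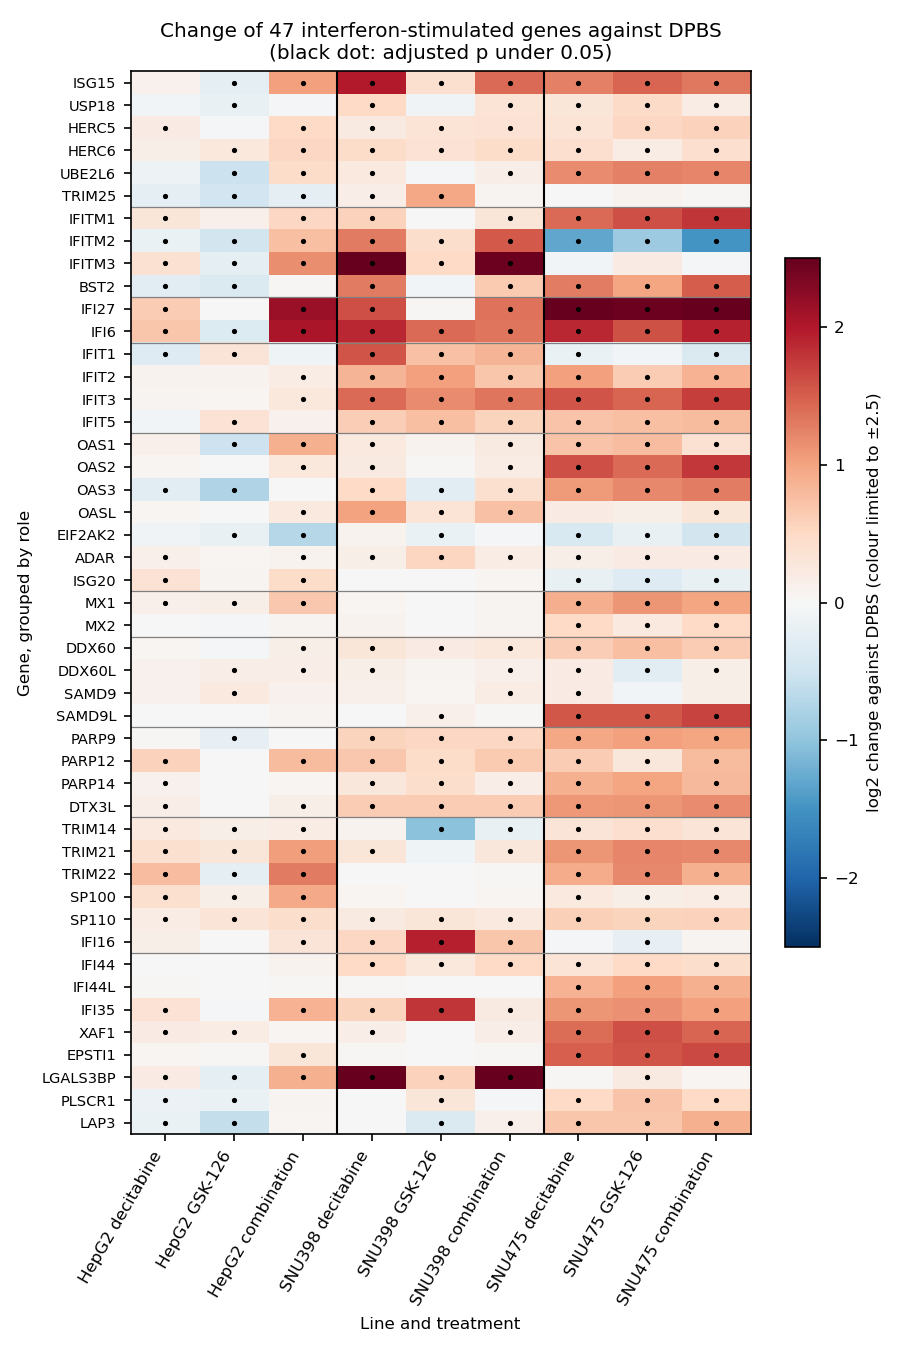
Heat map of the log2 change of each of the 47 tested members (one line each, ordered by role) against DPBS for decitabine, GSK-126 and the combination in HepG2, SNU398 and SNU475, on the scale log2(scaled RPKM + 0.5), with colour limited to 2.5 either way and a dot for an adjusted p under 0.05. The HepG2 columns are pale except for the combination, with IFI27 at 2.16 and IFI6 at 2.04, while the 3 SNU475 columns look much alike and hold IFI27 at 3.56, 2.45 and 3.85.

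In HepG2, single drugs moved few of these genes far and the combination raised a set led by IFI27 and IFI6. Decitabine alone raised 19 of the 47 members and lowered 7, where 35.9% of all genes were higher and 18.3% lower, with a median of 0.10 against 0.07 over all genes. No member reached a log2 change of 1 on the scale log2(RPKM + 0.5), though IFI27 stood 6.03-fold and TRIM22 3.57-fold over the DPBS mean (1.54 and 1.42 on the log2 scale with a pseudocount of 0.1). GSK-126 raised 11 and lowered 16, where 31% and 21.7% of all genes were called, with a median of 0 against 0.03. The combination raised 30 and lowered 2, where 40.6% and 25.9% were called, and 6 members rose at least 2-fold (6.44% of all genes did), with a median of 0.25 against 0.08. By role, the combination raised all 6 of the TRIM, nuclear body and DNA-binding proteins, 5 of 7 RNA enzymes, 4 of 6 genes of the ISG15 system, 3 of 4 membrane restriction factors and both IFI27 and IFI6. It raised 2 of 4 IFIT genes, 2 of 4 of the DDX60 and SAMD9 pairs and 3 of the 8 others. Where 3 log2 changes against DPBS stand in a row, they are those of decitabine, GSK-126 and the combination unless ordered otherwise, and their standard errors lay between 0.02 and 0.10.

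The HepG2 counts for decitabine depend on how libraries are put on one scale. After quantile normalization, decitabine raised 12 members and lowered 17 with a median of -0.06, and the share of higher calls over all genes went from 66.3% to 46.3%, or 53.3% without scaling. For the combination that share went from 61% to 47.9%, with 7 members lower and a member median of 0.10. Beside the HepG2 results, the hepatocyte marker sum of the combination libraries was 57.2% and 57.3% of the DPBS mean, and the immune sum, mostly LYZ, was 38.9% and 39.7% of the DPBS mean with GSK-126. Within that immune sum CD14 went from 0.887 and 1.02 RPKM with DPBS to 5.32 and 5.45 with decitabine and 4.49 and 4.63 with the combination, and was at 0.453 and 0.433 with GSK-126. The stellate and fibroblast sum went from 8.48 and 8.28 RPKM with DPBS to 17.8 and 17.5 with decitabine and 21.7 and 21.4 with the combination; their part in the member values was not tested.

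IFI27, a small mitochondrial membrane protein, had the largest rise in HepG2. Its libraries read 0.0776 and 0.0439 RPKM with DPBS, 0.382 and 0.351 with decitabine, 0.03298 and 0.0882 with GSK-126, and 2.02 and 1.97 with the combination. The combination libraries stood 32.9-fold above the DPBS mean and the decitabine libraries 6.03-fold, from 23 DPBS reads in all, while GSK-126 overlapped DPBS. The log2 change was 2.16 (SE 0.06, adjusted p = 2.4e-13) for the combination (3.71 with a pseudocount of 0.1) and 0.63 for decitabine (1.54 with 0.1 and 0.37 with 1). IFI6, an endoplasmic reticulum protein that blocks flavivirus replication, read 8.13 and 7.45 RPKM with DPBS, 13.7 and 12.4 with decitabine, 6.18 and 5.91 with GSK-126, and 34.6 and 32.7 with the combination. Here the combination was highest, decitabine was in between, and GSK-126 lay under DPBS, with log2 changes of 2.04 (SE 0.05, adjusted p = 6.7e-14), 0.70 and -0.34.

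ISG15, the ubiquitin-like modifier that the HERC5 ligase attaches to proteins, read 12.2 and 11.3 RPKM with DPBS, 12.2 and 13.2 with decitabine, 9.92 and 9.59 with GSK-126, and 24.7 and 23.7 with the combination in HepG2. Only the combination stood clear above DPBS, at a log2 change of 1.02 (SE 0.05, adjusted p = 1.2e-10), and the GSK-126 libraries were the lowest 2 (-0.25). The E2 enzyme of that system, UBE2L6, was likewise lowest with GSK-126 and highest with the combination, with 4.19 and 4.17 RPKM in DPBS, 2.63 and 2.85 with GSK-126 and 6.15 and 5.70 with the combination. USP18 read 5.96 and 5.24 RPKM with DPBS, 5.49 and 5.21 with decitabine, 4.45 and 5.23 with GSK-126, and 5.38 and 5.45 with the combination. The DPBS, decitabine and combination libraries overlapped, and those of GSK-126 overlapped only decitabine, with the upper one just under the lower DPBS library. The GSK-126 call (-0.19, adjusted p = 0.044) was lost without DPBS library A (-0.11) or GSK-126 library A (-0.09), while the combination change of -0.04 was not called. HERC5 and HERC6 rose with the combination (0.50 and 0.51) from near 0, with HERC5 at 0.208 and 0.317 RPKM at most, and their changes were 1.39 and 1.16 with a pseudocount of 0.1, 0.28 and 0.30 with 1 and 0.19 and 0.17 after quantile normalization. TRIM25, which acts in RIG-I signalling, fell with each treatment (-0.25, -0.47 and -0.25).

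The membrane factors IFITM3 and IFITM2 also rose in HepG2 with the combination and were lower with GSK-126. IFITM3 libraries read 24.3 and 23.04 RPKM with DPBS, 29.0 and 33.1 with decitabine, 19.7 and 20.3 with GSK-126, and 56.01 and 52.1 with the combination. The combination and decitabine libraries stood above DPBS and the GSK-126 libraries below it, and the change with the combination was 1.17 (SE 0.09, adjusted p = 2.5e-08). The GSK-126 call (-0.24) was lost without any one of the 4 libraries, at -0.20 to -0.28. IFITM2, a near-identical paralog whose gene model overlaps that of IFITM1, read 7.07 and 7.02 RPKM with DPBS, 6.07 and 6.34 with decitabine, 5.03 and 5.04 with GSK-126, and 12.6 and 11.97 with the combination. Its libraries fell into 4 levels without overlap, GSK-126 lowest (-0.45), then decitabine, DPBS and the combination (0.76). IFITM1 read 0.0599 and 0.0636 RPKM with DPBS, 0.1496 and 0.246 with decitabine, 0.0853 and 0.147 with GSK-126, and 0.361 and 0.244 with the combination. Its read assignment between these paralogs is uncertain, and its combination change of 0.51 was 1.30 with a pseudocount of 0.1, 0.29 with 1 and 0.17, no longer called, after quantile normalization. BST2 read 20.6 and 20.1 RPKM in DPBS and 21.2 and 20.1 with the combination.

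TRIM22, an interferon-induced ligase that restricts retroviral transcription, read 0.196 and 0.179 RPKM with DPBS, 0.674 and 0.664 with decitabine, 0.0728 and 0.101 with GSK-126, and 1.15 and 1.22 with the combination in HepG2. GSK-126 lay below DPBS, decitabine above and the combination highest, with log2 changes of -0.23, 0.77 (SE 0.04, adjusted p = 2.2e-10) and 1.29 (SE 0.04, adjusted p = 2.5e-13). With a pseudocount of 0.1 the decitabine and combination changes were 1.42 and 2.16, and the decitabine change was 0.49 with 1 and 0.45 after quantile normalization. TRIM21 read 1.52 and 1.61 RPKM with DPBS, 2.26 and 2.23 with decitabine, 1.88 and 2.23 with GSK-126, and 3.74 and 3.76 with the combination, so that all 3 treatments lay above DPBS and the combination, at 1.04 (SE 0.06, adjusted p = 8.7e-10), above the single drugs. The mono-ADP-ribosyltransferase PARP12 led the decitabine rises together with these genes, at 0.57, and reached 4.47 and 4.48 RPKM with the combination from 2.25 and 2.48 in DPBS. The nuclear body protein SP100 rose by 0.94 with the combination and its neighbour SP110 by 0.44.

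The RNA enzymes of HepG2 split. OAS1, which makes the 2-5A messenger that activates RNase L, read 1.16 and 1.07 RPKM with DPBS, 1.32 and 1.19 with decitabine, 0.643 and 0.606 with GSK-126, and 2.65 and 2.28 with the combination. The GSK-126 libraries were the lowest 2 (-0.52) and the combination libraries the highest 2 (0.88). OAS3, its neighbour, was lowest with GSK-126 too, at 2.26 and 2.49 RPKM from 4.47 and 4.24 (-0.76, SE 0.04, adjusted p = 1.1e-10), and stood at 4.37 and 4.42 with the combination. EIF2AK2, the kinase PKR that halts translation on double-stranded RNA, was the member that fell most with the combination, from 5.91 and 6.17 RPKM to 3.402 and 3.599 (-0.71, SE 0.05, adjusted p = 2.6e-09). ADAR, the enzyme that edits adenosine in double-stranded RNA, stayed within 26.5 to 29.3 RPKM over all 8 libraries. It was still called higher with decitabine and with the combination, which stood at only 1.067 times the DPBS mean.

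MX1, the GTPase that traps incoming viral capsids, read 0.342 and 0.367 RPKM with DPBS, 0.475 and 0.391 with decitabine, 0.429 and 0.462 with GSK-126, and 0.869 and 0.854 with the combination in HepG2. The combination libraries were the highest 2, with a log2 change of 0.67 (1.08 with a pseudocount of 0.1 and 0.39 after quantile normalization). IFIT1, which binds RNA lacking cap methylation, read 1.04 and 0.946 RPKM with DPBS, 0.699 and 0.679 with decitabine, 1.45 and 1.27 with GSK-126, and 0.8402 and 0.952 with the combination. GSK-126 was highest and decitabine lowest, with changes of 0.32 and -0.33, and the combination did not differ from DPBS beyond the spread (-0.10). Other members that GSK-126 raised most were IFIT5 (0.37), SP110 (0.33), TRIM21 (0.30) and HERC6 (0.27). Beside OAS3, it lowered the leucine aminopeptidase LAP3 (-0.59) and UBE2L6 (-0.53) most. With decitabine the lowest were IFIT1, OAS3 (-0.29) and BST2 (-0.26), and the BST2 call was lost without decitabine library A, at -0.15.

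**Figure D3:**
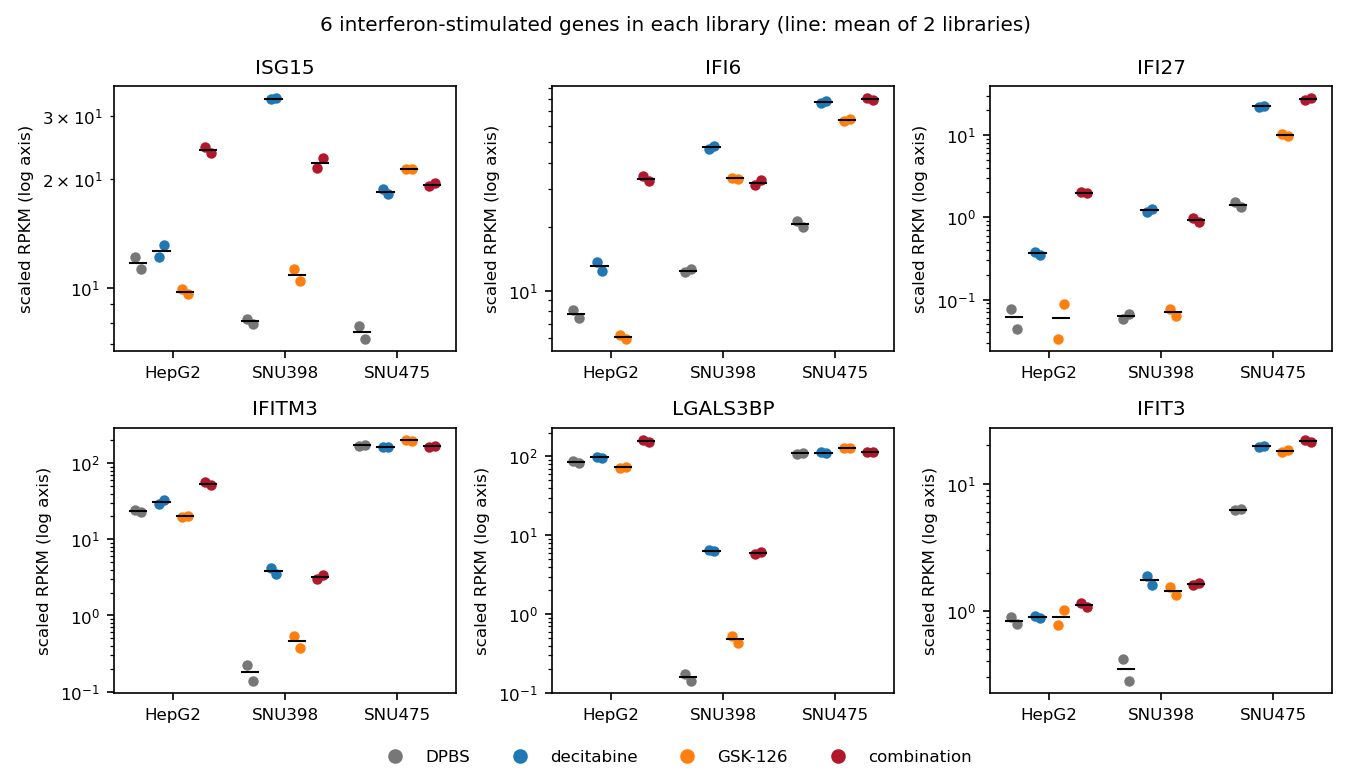
Scaled RPKM of ISG15, IFI6, IFI27, IFITM3, LGALS3BP and IFIT3 in each of the 24 libraries, 1 point a library on a log axis, by line and treatment. IFI6 is highest with the combination in HepG2 (34.6 and 32.7 RPKM) but with decitabine in SNU398 (46.6 and 48.3), and LGALS3BP and IFITM3 climb most in SNU398, from the lowest DPBS levels of the 3 lines.

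Adding GSK-126 to decitabine in HepG2 raised 27 members and lowered 2, where 30% and 25.8% of all genes were called. The largest differences were those of IFI27 (1.53, SE 0.06), IFI6 (1.34), IFITM2 (0.93), ISG15 (0.91) and IFITM3 (0.79), and EIF2AK2 (-0.61) and the XIAP-binding protein XAF1 (-0.15) were lower. The interaction, which is 0 on the log2 scale where the single effects multiply, was above 0 for 24 members and below 0 for 4, where 25.1% and 27.9% of all genes were called, with a median of 0.21 against 0. It was largest for IFI6 (1.68, SE 0.07, adjusted p = 7.9e-11), IFI27 (1.53), IFITM2 (1.38), OAS1 (1.28) and ISG15 (1.16), and lowest for EIF2AK2 (-0.42), XAF1 (-0.33) and SAMD9 (-0.24), whose call was lost without DPBS library A, either decitabine library, GSK-126 library A or combination library A (-0.14 to -0.26). In scaled RPKM, with no test, the gain with both drugs was above the sum of the single gains for 35 of the 47 members, and the combination was the highest of the 4 groups for 34. These counts were not taken over all genes, so no share stands beside them. The 35 include members that lay under DPBS with both drugs, such as TRIM25 (-2.38 RPKM) and USP18 (-0.19), as they did with each single drug. For IFI6 the gains over DPBS were 5.23 RPKM with decitabine, -1.75 with GSK-126 and 25.9 with both.

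In SNU398, decitabine alone raised nearly as many members as the combination, led by LGALS3BP, IFITM3 and ISG15. Decitabine raised 34 of the 47 members and lowered none (0 also at an unadjusted p under 0.05), where 23.4% of all genes were higher and 15.4% lower. At least 2-fold rises were seen in 10 members (1.08% of all genes), and the median was 0.31 against 0.02. OASL was among the 10 and passed the filter only through treated libraries of this line, which favoured its rise. GSK-126 raised 25 and lowered 4, where 30% and 22.4% of all genes were called, with 5 members at least 2-fold higher (2.12%), with a median of 0.20 against 0.02. The combination raised 35 and lowered 1, where 28.9% and 18.4% were called, with 7 members at least 2-fold higher (1.59%), with a median of 0.26 against 0.03. Decitabine raised all 6 genes of the ISG15 system, all 4 membrane factors, all 4 IFIT genes and all 4 of the PARP and DTX3L group, while neither MX gene was called. MX2 had 0 and 2 reads with DPBS and 28 and 19 with decitabine, and MX1 8 and 7 and then 11 and 20. At such levels the pseudocount of 0.5 holds a change near 0. Beside these results, the stellate and fibroblast sum of SNU398 went from 57.5 and 54.3 RPKM with DPBS to 87.95 and 82.9 with decitabine and 105.7 and 104.6 with the combination, and was 57.3 and 57.5 with GSK-126. LUM made up most of it, and COL1A1 went from 0.667 and 0.609 RPKM to 3.39 and 3.47 with decitabine and 4.54 and 4.62 with the combination; their part in the member values was not tested. The share of higher calls over all genes moved with scaling, from 60.4% to 49.1% for decitabine and 61% to 49.2% for the combination after quantile normalization, and from 57.3% to 38.3% for GSK-126 without scaling, where 7 members were lower.

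LGALS3BP (ENSG00000108679, hg19 chromosome 17, 76967320 to 76976191) had the largest rise in SNU398. Its libraries read 0.176 and 0.141 RPKM with DPBS, 6.45 and 6.34 with decitabine, 0.533 and 0.428 with GSK-126, and 5.796 and 6.07 with the combination. Both treatments with decitabine lay far above the other 4 libraries, 40.4-fold (decitabine) and 37.4-fold (combination) over the DPBS mean, and GSK-126 lay 3.03-fold over it, from 77 DPBS reads. The log2 changes were 3.39 (SE 0.04, adjusted p = 1.3e-15), 3.29 for the combination and 0.57 for GSK-126 (1.17 with a pseudocount of 0.1 and 0.35 with 1). Even so, decitabine brought SNU398 to 7.58% of the HepG2 DPBS level and 5.82% of that of SNU475. Hepatocyte markers differed between the decitabine libraries, which summed to 47.2 RPKM in A and 0.873 in B, while LGALS3BP was 6.45 in A and 6.34 in B. The part of these markers in the LGALS3BP values was not tested.

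IFITM3 (ENSG00000142089, hg19 chromosome 11, 319669 to 327537) read 0.224 and 0.136 RPKM with DPBS, 4.17 and 3.55 with decitabine, 0.542 and 0.3697 with GSK-126, and 3.02 and 3.43 with the combination in SNU398. It rose 21.4-fold with decitabine and 17.9-fold with the combination over the DPBS mean (33 DPBS reads), with no overlap, at log2 changes of 2.68 (SE 0.09, adjusted p = 2.2e-11) and 2.45. IFITM2 read 0.219 and 0.234 RPKM with DPBS, 1.16 and 1.44 with decitabine, 0.458 and 0.518 with GSK-126, and 1.73 and 1.48 with the combination, and its libraries rose in the order DPBS, GSK-126, decitabine, combination without overlap. Its log2 changes were 1.30, 0.44 and 1.53 for decitabine, GSK-126 and the combination (2.09 and 2.38 for the first and last with a pseudocount of 0.1). BST2 read 0.0772 and 0.0959 RPKM with DPBS, 0.867 and 1.01 with decitabine, 0.0674 and 0.0481 with GSK-126, and 0.455 and 0.391 with the combination, with decitabine above the combination and GSK-126 just under DPBS. Its change with decitabine was 1.29 (SE 0.06, adjusted p = 1.3e-09), or 2.48 with a pseudocount of 0.1 and 0.83 with 1, from 13 DPBS reads. IFITM1, with 4 DPBS reads, read 0.0269 and 0.0285 RPKM with DPBS, 0.309 and 0.2698 with decitabine, 0.0171 and 0.0491 with GSK-126, and 0.132 and 0.18 with the combination and was highest with decitabine (0.58, 1.61 and 0.33 with those pseudocounts).

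ISG15 (ENSG00000187608, hg19 chromosome 1, 948803 to 949920) read 8.18 and 7.95 RPKM with DPBS, 33.4 and 33.7 with decitabine, 11.3 and 10.4 with GSK-126, and 21.5 and 22.9 with the combination in SNU398. Decitabine was highest, the combination next and GSK-126 just above DPBS, in 4 levels without overlap, with log2 changes of 1.99 (SE 0.05, adjusted p = 8.7e-13), 1.41 and 0.41. IFI6 read 12.2 and 12.6 RPKM with DPBS, 46.6 and 48.3 with decitabine, 33.9 and 33.7 with GSK-126, and 31.3 and 33.3 with the combination, so that decitabine was highest and GSK-126 just above the combination (1.89, 1.41 and 1.34). IFI27 read 0.05895 and 0.0665 RPKM with DPBS, 1.17 and 1.26 with decitabine, 0.0769 and 0.0641 with GSK-126, and 0.9797 and 0.886 with the combination. GSK-126 overlapped DPBS, and decitabine (19.3-fold) and the combination (14.9-fold) stood above it, with log2 changes of 1.61 and 1.35 that were 3.01 and 2.66 with a pseudocount of 0.1 and 1.06 and 0.86 with 1. USP18 read 3.62 and 3.52 RPKM with DPBS, 5.31 and 5.21 with decitabine, 3.46 and 3.21 with GSK-126, and 4.33 and 5.02 with the combination, with decitabine highest (0.50) and GSK-126 lowest (not called).

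All 4 IFIT genes, neighbours on chromosome 10, rose with each treatment in SNU398. IFIT1 read 1.39 and 1.36 RPKM with DPBS, 5.14 and 4.98 with decitabine, 2.54 and 2.71 with GSK-126, and 2.87 and 2.85 with the combination, with decitabine highest (1.57, SE 0.05, adjusted p = 8.4e-12) and GSK-126 and the combination near each other. IFIT3, the partner of IFIT1 in RNA binding, read 0.414 and 0.278 RPKM with DPBS, 1.89 and 1.59 with decitabine, 1.53 and 1.32 with GSK-126, and 1.59 and 1.67 with the combination. Decitabine and the combination overlapped, GSK-126 lay just under them and all 6 treated libraries lay above DPBS, with log2 changes of 1.41, 1.19 (1.79 with a pseudocount of 0.1) and 1.33. IFIT2 read 0.198 and 0.263 RPKM with DPBS, 0.82 and 0.798 with decitabine, 1.04 and 0.945 with GSK-126, and 0.724 and 0.651 with the combination and was highest with GSK-126 (1.03, and 1.73 with a pseudocount of 0.1). OASL, an oligoadenylate synthetase homolog without the synthetase activity, read 0.0616 and 0.0846 RPKM with DPBS, 0.673 and 0.637 with decitabine, 0.272 and 0.183 with GSK-126, and 0.436 and 0.465 with the combination, with decitabine highest (1.01, 2.13 with a pseudocount of 0.1 and 0.63 with 1). OASL passed the filter on low values only through treated SNU398 libraries, so its rise there was favoured by the filter and is a description. MX1 reached at most 0.0406 RPKM and OAS1 0.136 in any SNU398 library.

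GSK-126 had its own leading genes in SNU398. IFI16 (ENSG00000163565, hg19 chromosome 1, 158969758 to 159024945) read 0.317 and 0.306 RPKM with DPBS, 0.732 and 0.578 with decitabine, 2.47 and 2.78 with GSK-126, and 0.7998 and 0.827 with the combination. The GSK-126 libraries stood apart from the other 6, 8.43-fold over the DPBS mean, at a log2 change of 1.94 (SE 0.06, adjusted p = 2.6e-12). IFI35, a partner of NMI, read 4.43 and 5.04 RPKM with DPBS, 7.12 and 7.15 with decitabine, 17.6 and 17.2 with GSK-126, and 5.399 and 5.77 with the combination, and again GSK-126 stood apart (1.78, SE 0.05, adjusted p = 1.4e-12), while the combination was called at 0.22 and not without DPBS library A (0.14). TRIM25 was likewise highest with GSK-126, at 19.7 and 19.6 RPKM from 9.76 and 9.78 (0.97). TRIM14, an adaptor in antiviral signalling, went the other way and read 3.91 and 3.74 RPKM with DPBS, 4.03 and 4.19 with decitabine, 1.67 and 1.61 with GSK-126, and 3.19 and 3.46 with the combination. It was lowest with GSK-126 (-1.02, SE 0.04, adjusted p = 2.7e-11) and lower with the combination (-0.18), and LAP3 (-0.36) and OAS3 (-0.26) were also lower with GSK-126. For IFI16, IFI35, TRIM25 and TRIM14, the combination libraries lay nearer to DPBS than the GSK-126 libraries did.

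Adding GSK-126 to decitabine in SNU398 raised 3 members and lowered 10, where 12.5% and 8.07% of all genes were called. The lower ones were led by IFIT1 (-0.73, SE 0.05), BST2 (-0.64, and -0.99 with a pseudocount of 0.1) and ISG15 (-0.58), and the higher ones were IFITM2 (0.23), IFI16 (0.19) and LAP3 (0.11). No higher call was left without combination library A or with the 8 SNU398 libraries fitted alone, 1 was left without decitabine library A or without library B, and 6 lower calls were left without decitabine library B or combination library B. The values without combination library A were 0.14 for IFITM2, 0.20 for IFI16 and 0.10 for LAP3. The interaction was below 0 for 24 members and above 0 for 3, where 22.8% and 18.4% of all genes were called, with a median of -0.24 against -0.01. It was lowest for IFI35 (-2.11, SE 0.08, adjusted p = 3.4e-11), IFI6 (-1.95) and IFI16 (-1.76), and above 0 for TRIM14 (0.75), LAP3 (0.47) and OAS3 (0.16), the last lost without DPBS library B (0.15), decitabine library B (0.14) or GSK-126 library A (0.15). Without scaling, the share of interaction calls above 0 went from 44.7% to 64.7% of all calls, with 5 members above 0. In scaled RPKM the gain with both drugs was above the sum of the single gains for 11 of the 47 members, and decitabine was the highest group for 26, with no test and no share over all genes.

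**Figure D4:**
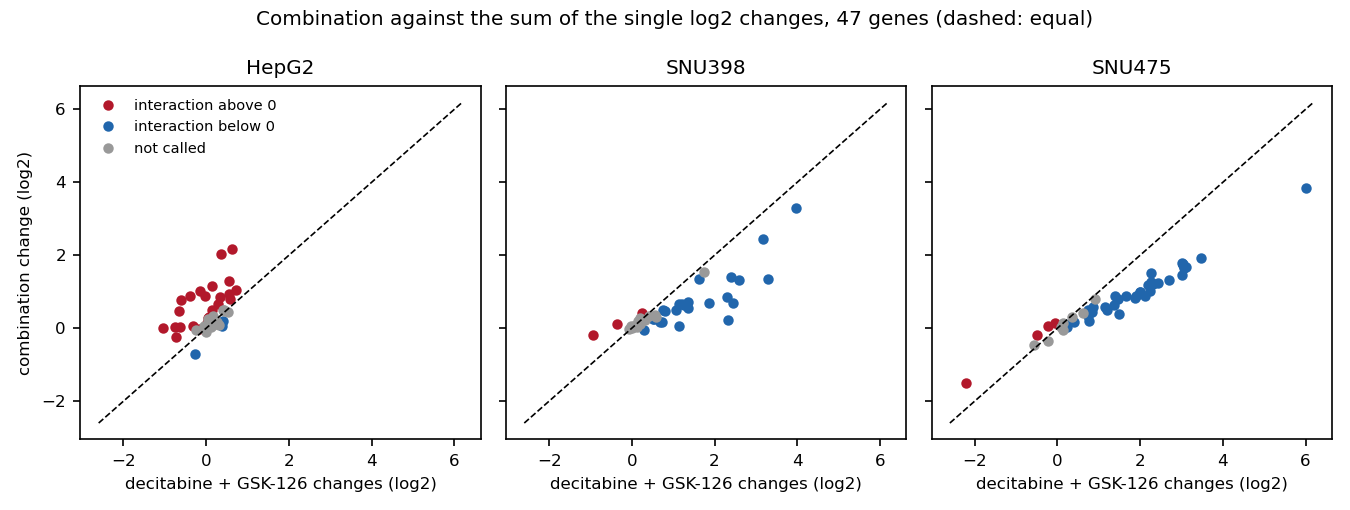
Log2 change of each tested member with the combination (vertical axis) against the sum of its log2 changes with decitabine and GSK-126 alone (horizontal axis), 1 panel per line, with the line of equality. Members called for the interaction lie mostly above the line in HepG2 (24 above, 4 below) and mostly below it in SNU398 (3 and 24) and SNU475 (4 and 35).

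In SNU475, the line with the highest DPBS levels, each treatment raised most members and the 3 treatments gave near values. Decitabine raised 38 and lowered 4, where 24.2% and 27.3% of all genes were called, GSK-126 raised 37 and lowered 5, where 21.5% and 28.5% were, and the combination raised 38 and lowered 4, where 25.3% and 29.6% were. At least 2-fold higher were 16, 18 and 15 members (1.61%, 1.14% and 1.96% of all genes), and the medians were 0.70, 0.72 and 0.79 against -0.01, -0.02 and -0.01. Each treatment raised all 4 of the PARP and DTX3L group, both MX genes, IFI27 and IFI6, and 5 of the 6 genes of the ISG15 system, the exception being TRIM25. Stellate and fibroblast markers (6 genes, with ACTA2 up to 200.3 RPKM) summed to 58.6 and 61.7 RPKM in DPBS and to as much as 230.5 in the treated SNU475 libraries, of which each lay above both DPBS libraries. Immune markers, mostly CD14, summed to 14.0 and 12.9 RPKM in DPBS and to 4.53 to 6.81 in the treated libraries. FGB of the hepatocyte list went from 13.5 and 13.2 RPKM to between 0.265 and 0.792 in the treated libraries. The part of these lists in the results was not tested.

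IFI27 (ENSG00000165949, hg19 chromosome 14, 94571182 to 94583033) had the largest rise of any member in SNU475. It read 1.52 and 1.33 RPKM with DPBS, 21.5 and 22.7 with decitabine, 10.4 and 9.65 with GSK-126, and 26.4 and 28.0 with the combination. The 4 levels did not overlap, with the combination highest at 19.1-fold over the DPBS mean, decitabine at 15.5-fold and GSK-126 at 7.01-fold. The log2 changes were 3.85 (SE 0.06, adjusted p = 1.5e-15), 3.56 and 2.45. IFI6 (ENSG00000126709, hg19 chromosome 1, 27992572 to 27998729) read 21.4 and 20.01 RPKM with DPBS, 76.5 and 78.5 with decitabine, 62.8 and 64.2 with GSK-126, and 80.8 and 79.5 with the combination, with GSK-126 between DPBS and the libraries that had decitabine (1.88, 1.59 and 1.93).

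ISG15 read 7.84 and 7.19 RPKM with DPBS, 18.8 and 18.2 with decitabine, 21.4 and 21.4 with GSK-126, and 19.2 and 19.5 with the combination in SNU475, where GSK-126 was the highest group (1.25, 1.45 and 1.31). UBE2L6 read 20.01 and 20.9 RPKM with DPBS, 46.2 and 47.9 with decitabine, 48.8 and 51.1 with GSK-126, and 48.2 and 49.3 with the combination, so that the DPBS libraries stood apart from 6 treated ones that lay close together. USP18 read 1.62 and 1.596 RPKM with DPBS, 1.99 and 2.198 with decitabine, 2.52 and 2.33 with GSK-126, and 1.94 and 1.85 with the combination, with GSK-126 highest (0.47). Its change with the combination (0.19) lost its call without any one of the 4 libraries, at 0.16 to 0.21.

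The IFITM genes of SNU475 moved in opposite directions. IFITM1 read 1.69 and 1.87 RPKM with DPBS, 5.58 and 5.53 with decitabine, 6.101 and 6.85 with GSK-126, and 6.56 and 8.14 with the combination, and all treated libraries lay above DPBS (1.41, 1.61 and 1.78). IFITM2 read 38.9 and 39.7 RPKM with DPBS, 15.7 and 15.6 with decitabine, 20.5 and 21.2 with GSK-126, and 14.1 and 13.2 with the combination, falling with each treatment and most with the combination (-1.30, -0.90 and -1.49). IFITM3, the highest member of the line, read 168.3 and 175.1 RPKM with DPBS, 165.1 and 162.2 with decitabine, 201.6 and 196.5 with GSK-126, and 161.7 and 170.3 with the combination, with no change called. Reads of these paralogs can be split between them by the counting, so the opposite directions of IFITM1 and IFITM2 are uncertain. BST2 read 13.6 and 13.1 RPKM with DPBS, 33.1 and 33.1 with decitabine, 27.2 and 26.9 with GSK-126, and 37.1 and 41.3 with the combination, in 4 levels without overlap that rose from DPBS over GSK-126 and decitabine to the combination (0.99, 1.28 and 1.52).

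Among the IFIT genes of SNU475, IFIT3 (ENSG00000119917, hg19 chromosome 10, 91087651 to 91100728) read 6.22 and 6.28 RPKM with DPBS, 19.6 and 19.8 with decitabine, 17.7 and 18.3 with GSK-126, and 22.1 and 21.4 with the combination, with all treatments well above DPBS (1.58, 1.45 and 1.72). IFIT2 read 2.301 and 2.29 RPKM with DPBS, 5.06 and 5.31 with decitabine, 3.86 and 3.77 with GSK-126, and 4.86 and 4.398 with the combination, with decitabine highest (1.02). IFIT1, in the same cluster, read 3.45 and 3.396 RPKM with DPBS, 2.91 and 3.13 with decitabine, 3.21 and 3.25 with GSK-126, and 2.57 and 2.54 with the combination. Its combination libraries were the lowest 2 (-0.36), and its decitabine call (-0.16) was lost without DPBS library A (-0.15) or decitabine library A (-0.11).

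OAS1, OAS2 and OAS3 rose with each treatment in SNU475. OAS2 read 0.548 and 0.512 RPKM with DPBS, 2.71 and 2.63 with decitabine, 2.25 and 2.24 with GSK-126, and 3.14 and 2.83 with the combination, with the 6 treated libraries far above DPBS and GSK-126 lowest among them (1.62, 1.41 and 1.76). OAS3 read 2.37 and 2.52 RPKM with DPBS, 5.602 and 5.65 with decitabine, 6.24 and 6.24 with GSK-126, and 6.63 and 6.66 with the combination (1.06, 1.20 and 1.28), and OAS1 read 1.08 and 1.17 RPKM with DPBS, 2.198 and 2.11 with decitabine, 2.26 and 2.31 with GSK-126, and 1.49 and 1.77 with the combination, with the combination lower than the single drugs. The kinase gene EIF2AK2 fell with each treatment, from 14.2 and 14.0 RPKM to 10.2 and 10.1 with the combination (-0.39, -0.18 and -0.46). The exonuclease ISG20 was low and fell from 0.279 and 0.274 RPKM to 0.125 and 0.119 with GSK-126 (-0.32, and -0.18 with decitabine), and DDX60L fell with GSK-126 (-0.28) while rising with decitabine (0.21).

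MX1 read 0.705 and 0.747 RPKM with DPBS, 1.81 and 1.75 with decitabine, 2.09 and 2.17 with GSK-126, and 1.92 and 1.95 with the combination in SNU475, with GSK-126 highest (1.10). SAMD9L, a translation repressor next to SAMD9 on chromosome 7, read 2.21 and 2.03 RPKM with DPBS, 7.34 and 7.102 with decitabine, 7.38 and 7.02 with GSK-126, and 7.94 and 7.97 with the combination. All 6 treated libraries lay above DPBS and close together (1.56, 1.55 and 1.69), while SAMD9 lay within 4.10 to 5.18 RPKM over all 8 libraries. EPSTI1, first known from breast stroma, read 1.35 and 1.35 RPKM with DPBS, 4.39 and 5.02 with decitabine, 4.78 and 5.27 with GSK-126, and 5.197 and 5.37 with the combination (1.49, 1.58 and 1.65), and XAF1 read 0.6901 and 0.6398 RPKM with DPBS, 2.52 and 2.63 with decitabine, 3.02 and 3.07 with GSK-126, and 2.74 and 2.62 with the combination (1.40, 1.61 and 1.45). In HepG2, by contrast, EPSTI1 reached 0.127 RPKM at most and in SNU398 0.0262.

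Other SNU475 members called at least 2-fold higher with some treatment shared this form, with DPBS lowest and the treatments close. DTX3L, the ligase that pairs with PARP9, went from 10.1 and 10.01 RPKM in DPBS to 21.9 and 21.8 with decitabine, 21.8 and 22.4 with GSK-126 and 23.97 and 23.1 with the combination. PARP9 went from 4.66 and 4.80 to 9.83 and 9.70, 10.01 and 10.3, and 9.77 and 9.84 RPKM in the same order. The models of DTX3L and PARP9 overlap, so their reads are not fully separable. IFI35 read 9.08 and 9.48 RPKM with DPBS, 20.8 and 20.3 with decitabine, 20.6 and 21.7 with GSK-126, and 18.8 and 19.7 with the combination. TRIM21 read 4.39 and 4.71 RPKM with DPBS, 9.78 and 10.8 with decitabine, 11.5 and 11.05 with GSK-126, and 11.2 and 11.2 with the combination. In both genes the DPBS libraries stood apart and the treatments lay near each other. TRIM22 read 3.05 and 3.21 RPKM with DPBS, 6.35 and 6.504 with decitabine, 7.896 and 7.82 with GSK-126, and 6.15 and 6.202 with the combination, and GSK-126 stood above the other treatments (1.20). IFI44L read 1.13 and 1.05 RPKM with DPBS, 2.49 and 2.31 with decitabine, 2.78 and 2.69 with GSK-126, and 2.54 and 2.32 with the combination, again with GSK-126 highest (1.03). LGALS3BP, at 108.6 to 129.4 RPKM in all 8 libraries, was called only with GSK-126 (0.22), and its decitabine and combination values of 0.02 and 0.04 were -0.20 and -0.22 after quantile normalization.

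Adding GSK-126 to decitabine in SNU475 raised 10 members and lowered 2, where 7.39% and 10.9% of all genes were called. These were small differences, the largest being IFITM1 (0.37), IFI27 (0.29, SE 0.06), BST2 (0.24), HERC5 (0.23) and OAS3 (0.22), with OAS1 (-0.32) and IFIT1 (-0.21) lower. Without decitabine library A 3 higher calls were left, without decitabine library B 5 and without combination library B 6, and 1 lower call was left without decitabine library B or either combination library. Without decitabine library A the values were 0.37 for IFITM1, 0.24 for BST2 and 0.26 for HERC5, and without combination library B 0.22, 0.16 and 0.17, none of them called, while IFIT1 was -0.16 without decitabine library B and OAS1 -0.22 without combination library A. The interaction was below 0 for 35 members and above 0 for 4, where 16.6% and 19.7% of all genes were called, with a median of -0.71 against 0.02. It was lowest for IFI27 (-2.16, SE 0.09, adjusted p = 2.1e-10), XAF1 (-1.56) and IFI6 (-1.55), and above 0 for IFITM2 (0.71), ISG20 (0.32), IFI16 (0.28) and DDX60L (0.21). The calls of IFI16 and DDX60L were lost without decitabine library A (0.26 and 0.20) or combination library A (0.26 and 0.16), which left 2, that of IFI16 also without DPBS library B or either GSK-126 library (0.27 to 0.29), and that of DDX60L without DPBS library A (0.17). In scaled RPKM the gain with both drugs was above the sum of the single gains for 6 of the 47 members, and GSK-126 was the highest group for 20, the combination for 17, decitabine for 6 and DPBS for 4. Here too there was no test and no share over all genes.

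The effect of the combination was then compared between the lines. SNU398 had a higher effect than HepG2 in 20 members and a lower one in 14, where 26.2% and 31.9% of all genes were called, with a median difference of 0.07 against -0.05. SNU475 had a higher effect than HepG2 in 27 and a lower one in 9, where 24.8% and 39.8% were called (0.27 against -0.11), and a higher effect than SNU398 in 26 and a lower one in 8, where 22.7% and 33.8% were called (0.38 against -0.07). For SNU475 against HepG2 the share of higher calls over all genes was 38.4%, and 50.6% after quantile normalization. The SNU398 effect exceeded that of HepG2 most for LGALS3BP (2.40, SE 0.06, and 3.65 with a pseudocount of 0.1), IFITM3 (1.28, 2.40 with 0.1 and 0.68 with 1), IFIT3 (1.08), IFIT1 (0.94) and IFITM2 (0.77, 1.58 and 0.36), and fell short of it most for TRIM22 (-1.26, and -2.02 with 0.1), SP100 (-0.88) and IFI27 (-0.81). TRIM22 and SP100 had DPBS means of 0.005187 and 0.02899 RPKM in SNU398, where the pseudocount of 0.5 holds a change near 0. Their ratios to the DPBS mean were 3.063 and 1.693 in SNU398 and 6.315 and 2.386 in HepG2. For 3 of the 20 higher calls (IFI16, IFIT2 and OASL) and 2 of the 14 lower ones (MX1 and OAS1), the ratio went the other way.

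Of the members with a higher effect in SNU475, 8 of the 27 against HepG2 and 7 of the 26 against SNU398 were among the 11 that passed the filter through SNU475 alone. The pseudocount of 0.5 holds the change of such genes near 0 in the other lines, and for 7 and 8 of the higher calls the ratio to the DPBS mean was larger in the other line. On the log2 scale the differences from HepG2 were highest for IFI27 (1.69), SAMD9L (1.63), BST2 (1.5), OAS2 (1.49) and IFIT3 (1.46), and lowest for IFITM2 (-2.25), IFITM3 (-1.22) and LGALS3BP (-0.85). For IFI27 the difference was 0.45 with a pseudocount of 0.1, and the ratio to the DPBS mean was 32.9 in HepG2 and 19.1 in SNU475, so no order of these lines is read from it. OAS2 likewise had ratios of 9.70 in HepG2, from 7 DPBS reads, and 5.63 in SNU475. BST2 (1.01 and 2.94) and IFIT3 (1.31 and 3.48) had the larger ratio in SNU475. From SNU398 the differences were highest for IFI27 (2.5, and 1.5 with 0.1), SAMD9L (1.66), EPSTI1 (1.63), OAS2 (1.57) and IFITM1 (1.46), and lowest for LGALS3BP (-3.24, SE 0.06), IFITM2 (-3.02) and IFITM3 (-2.5). Of those highest values, all but that of IFI27 belong to members that passed the filter through SNU475 alone and are descriptions; OAS2 and IFITM1 had the larger ratio in SNU398 (8.41 against 5.63 and 5.64 against 4.13). LGALS3BP, IFITM2 and IFITM3, which had the highest DPBS levels in SNU475, thus had their largest combination effects in SNU398, where those levels were lowest.

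Against DPBS, 20 members were higher with the combination in all 3 lines, where 6.48% of all genes were. They were the ISG15 system genes ISG15, HERC5, HERC6 and UBE2L6, the RNA enzymes OAS1, OAS2, OASL and ADAR, IFIT2 and IFIT3, IFI27 and IFI6, IFITM1, DDX60 and DDX60L, DTX3L and PARP12, and TRIM21, SP110 and IFI35. Of these, 9 kept the call in every line under each alternative setting and with each library left out, namely ISG15, HERC5, HERC6, IFI27, IFI6, DTX3L, PARP12, SP110 and TRIM21. OASL, among the 20, passed the filter only through treated SNU398 libraries, which favoured its rise there. DDX60 and DDX60L in HepG2 and DDX60L in SNU398 were below 0 after quantile normalization (-0.08, -0.12 and -0.05). Decitabine alone gave 12 such members (4.27% of all genes), and 5 kept the call throughout, IFI27, IFI35, IFI6, PARP12 and TRIM21, while HERC5, IFITM1 and XAF1 were at -0.05, -0.01 and -0.10 in HepG2 after quantile normalization. GSK-126 gave 3 (3.25% of all genes), the ubiquitin ligase homolog HERC6, IFIT5 and SP110.

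Members that lie side by side on a chromosome did not always move together. In the IFIT cluster of chromosome 10 (hg19, 91061712 to 91180758 from IFIT2 to IFIT5), the decitabine changes in SNU475 were 1.02 for IFIT2, 1.58 for IFIT3, -0.16 for IFIT1 and 0.72 for IFIT5. In the OAS cluster of chromosome 12 (113344582 to 113449528 from OAS1 to OAS2), the combination changes in HepG2 were 0.88 for OAS1, 0.01 for OAS3, which was not called, and 0.27 for OAS2. The MX genes of chromosome 21 differed in DPBS level within HepG2, where MX2 lay at 2.15 and 2.23 RPKM and MX1 at 0.342 and 0.367, and in SNU475 MX1 changed by 0.99 and MX2 by 0.49 with the combination. The SAMD9 and SAMD9L pair of chromosome 7 differed likewise in SNU475, at 0.15 (not called) and 1.69 with the combination. Over the 49 gene models, 27 overlapped another gene of the table, and the strand setting of the counting is not given, so reads of overlapping antisense genes may be included.

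The members were also split by their promoters. Of the 28 members with the core, decitabine raised 13 in HepG2, 19 in SNU398 and 23 in SNU475, at median log2 changes of 0.11, 0.40 and 0.71, and of the 12 tested members whose window lacked it 5, 10 and 10, at medians of 0.13, 0.23 and 0.65. Over all genes tested, decitabine raised 35.9% in HepG2, 23.4% in SNU398 and 24.2% in SNU475. With the combination, those with the core had 17, 21 and 22 higher, and those without 8, 9 and 10, where 40.6%, 28.9% and 25.3% of all genes were. Split at the members' median CpG number, the 20 with at most 10 CpG had median decitabine changes of 0.17, 0.53 and 0.92 in HepG2, SNU398 and SNU475, and the 20 with more had 0.11, 0.20 and 0.62. These splits were not tested.

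**Figure D5:**
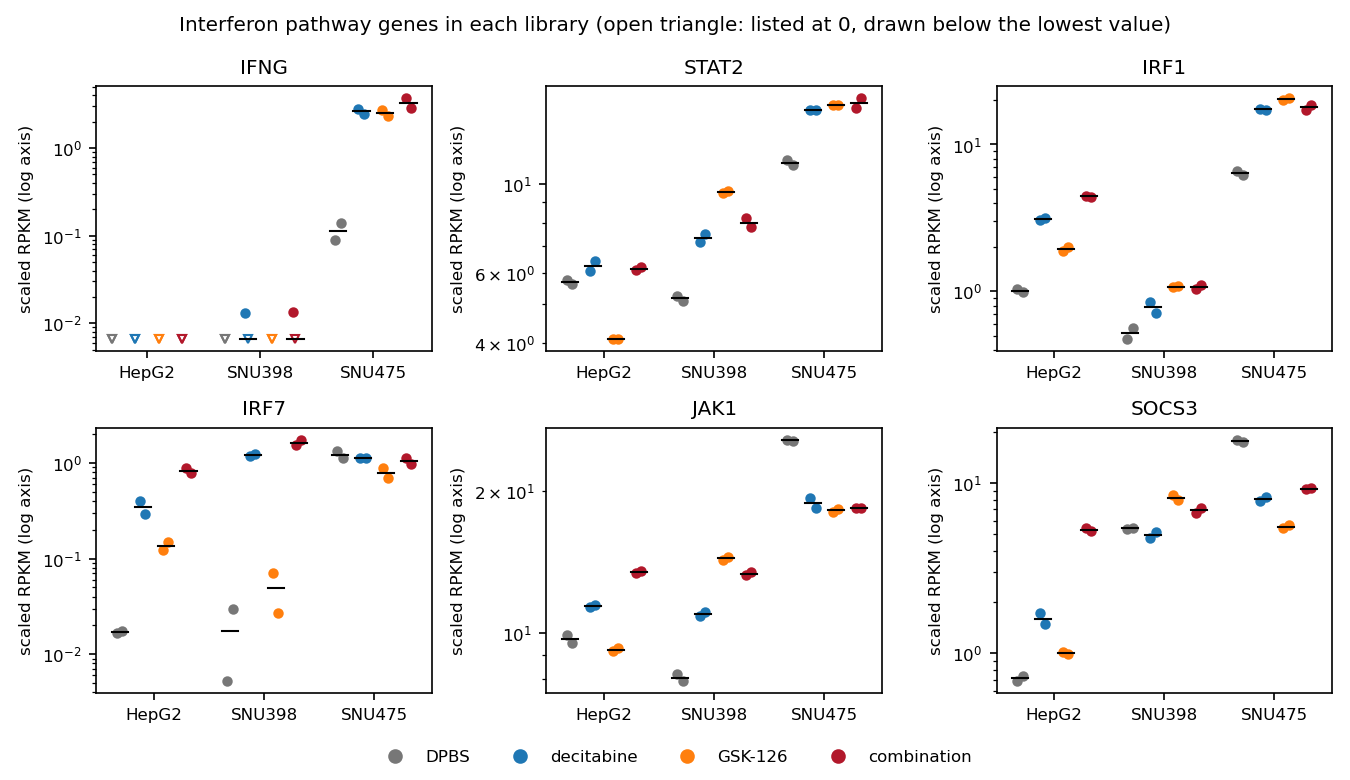
Scaled RPKM of IFNG, STAT2, IRF1, IRF7, JAK1 and SOCS3 in each of the 24 libraries on a log axis (values of 0 drawn at the foot), 1 point a library, by line and treatment. IFNG is above 2 RPKM only in the treated SNU475 libraries, and IRF7 climbs in HepG2 and SNU398 with decitabine and the combination.

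Of the other genes of the pathway, 37 were listed (8 sensors, 9 interferons, 6 receptor chains, 9 kinases and transcription factors and 5 negative regulators) and 27 were tested. In HepG2, decitabine raised 17 of the 27 and lowered 1 (35.9% and 18.3% of all genes), GSK-126 raised 7 and lowered 5 (31% and 21.7%), and the combination raised 19 and lowered 2 (40.6% and 25.9%). In SNU398 the counts were 13 and 0 (23.4% and 15.4%), 14 and 2 (30% and 22.4%), and 19 and 2 (28.9% and 18.4%). In SNU475 they were 11 and 10 (24.2% and 27.3%), 10 and 12 (21.5% and 28.5%), and 10 and 11 (25.3% and 29.6%). Among the 27, IFNG, IRF9 and the sensor TLR3 passed the filter only through treated libraries, which favoured higher calls for them. The 7 raised by GSK-126 in HepG2 were no larger a share than that of all genes. The listed interferon genes of type I and III, which are not all genes of these types, gave almost no reads: IFNB1, IFNA1, IFNA2, IFNK, IFNE, IFNL1, IFNL2 and IFNL3 had at most 5 reads in any library. Interferon gamma was the exception in SNU475, where IFNG read 0.0889 and 0.139 RPKM with DPBS, 2.82 and 2.44 with decitabine, 2.73 and 2.35 with GSK-126, and 3.73 and 2.902 with the combination. Its 6 treated libraries lay 22.2-fold to 29.1-fold over the DPBS mean by group, from 15 DPBS reads, with log2 changes of 2.35 (SE 0.09, adjusted p = 1.5e-11), 2.30 and 2.63 (3.68, 3.63 and 3.99 with a pseudocount of 0.1). IFNG passed the filter on low values only through the treated SNU475 libraries. Its rise over DPBS there was therefore favoured by the filter and is a description. The gene model of IFNG overlaps that of the antisense gene IFNG-AS1, so with the strand setting not given its reads may include those of that gene. In HepG2 IFNG was at 0 in every library and in SNU398 it did not exceed 0.0133 RPKM.

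STAT2, a part of the complex that binds the response element, rose in SNU398 by 0.46, 0.83 and 0.58 and in SNU475 by 0.42, 0.46 and 0.48, and in HepG2 it was lower with GSK-126 (-0.43). IRF9, its DNA-binding part, reached at most 0.7996 RPKM and rose with the combination in each line (0.58, 0.55 and 0.71; 1.02, 1.0 and 1.23 with a pseudocount of 0.1 and 0.38, 0.36 and 0.47 with 1). IRF9 passed the filter on low values only through treated libraries, so its rises were favoured by the filter and are descriptions. IRF1, a factor that interferon gamma induces, rose in HepG2 by 1.26, 0.69 and 1.71 and in SNU475 by 1.37, 1.60 and 1.41. In HepG2 it read 1.03 and 0.988 RPKM with DPBS, 3.07 and 3.17 with decitabine, 1.87 and 2.02 with GSK-126, and 4.46 and 4.39 with the combination, in 4 levels without overlap. In SNU398 its treated libraries also lay above DPBS. Before scaling, IRF1 read 0.544 and 0.651 RPKM there with DPBS and 0.965 and 0.817 with decitabine. It read 1.134 and 1.081 with GSK-126, and 1.17 and 1.252 with the combination.

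IRF7, the factor that amplifies type I interferon production, read 0.005202 and 0.0294 RPKM with DPBS, 1.19 and 1.24 with decitabine, 0.0712 and 0.0271 with GSK-126, and 1.53 and 1.73 with the combination in SNU398. The libraries with decitabine lay 70.3-fold and 94.6-fold (combination) over the DPBS mean, from 6 DPBS reads, with log2 changes of 1.73 (SE 0.08, adjusted p = 8.4e-10) and 2.04 (3.49 and 3.89 with a pseudocount of 0.1). In HepG2 IRF7 rose to 0.877 and 0.778 RPKM with the combination from 0.0166 and 0.0175 (1.36, and 2.98 with a pseudocount of 0.1 and 0.84 with 1), and in SNU475 it stood at 1.32 and 1.11 with DPBS and was lower with GSK-126 (-0.41). JAK1 rose in HepG2 with the combination (0.45) and in SNU398 with each treatment (0.43, 0.80 and 0.70), and fell in SNU475 with each (-0.43, -0.48 and -0.46). SOCS3, an inhibitor of JAK signalling, rose with the combination in HepG2 (2.26, SE 0.05, adjusted p = 3.8e-14) from 0.684 and 0.740 to 5.44 and 5.202 RPKM and fell in SNU475 (-1.08, -1.59 and -0.90).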

How the data were processed

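Per the labels' protocols, the 24 libraries came from Trizol RNA after removal of ribosomal RNA, with a kit that keeps strand, and were sequenced as single 75-base reads. HISAT2, featureCounts and hg19 are named in the submitters' processing notes; not given in the sources used here are versions, annotation, strand setting and how multi-mapping reads were handled. The values are RPKM as deposited by the authors for 63677 genes, rounded to 3 decimals. Low values stepped in whole reads (100% whole within 0.15), which gave denominators of 32600000 to 60370000 reads.

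Each library was scaled by the median of its ratios over 8211 genes at 1 RPKM or more in every library (factors 0.847 to 1.158), and all RPKM printed are so scaled unless stated otherwise. Genes at 0.5 RPKM or more in at least 2 libraries were kept (19377). Log2(scaled RPKM + 0.5) was fitted with limma 3.58.1 in R 4.3.3, as 1 model with a mean for each of 12 groups, a mean-variance trend and robust variances. All tests were two-sided, with Benjamini-Hochberg adjustment over every gene tested, and an adjusted p under 0.05 was called. A log2 change understates the change of genes near or below the pseudocount of 0.5. "Rose", "fell", "higher" and "lower" with a log2 change mean a call unless stated otherwise. Fold values over the DPBS mean are untested ratios of mean scaled RPKM.

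The code was tested on simulated data; tables and plots used Python 3.11.15, numpy 2.4.6, pandas 2.3.3 and matplotlib 3.10.9. The members, the pathway list and the marker lists (hepatocyte, immune, endothelial, stellate or fibroblast) were chosen with earlier results of these data known. In each comparison the 5 called members with the highest and the 3 with the lowest change were named, and values by library are given for members called with a log2 change of at least 1 against DPBS and for ISG15, IFI27, IFI6, the IFITM genes, IFIT1, MX1, OAS1 and USP18. Pathway genes outside the members were named by the same size, with STAT2, IRF9, IRF7 and JAK1 in any case, and 1 gene is not reported here; others were named after their values were seen. Other pseudocounts, scalings and filters, a replicate block, fits of 1 line alone and fits without each library were also run. Promoters are RefSeq's on GRCh38.p14, and no coordinate was moved between builds.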

Additional observations from a re-analysis of the deposited data

Results flagged for a closer look

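The combination's effect differed between lines, as tested by its own contrast in the limma model, and the differences are given here for the 5 members with the largest size in each pair of lines. Against HepG2, the effect in SNU398 differed by 2.40 (log2) for LGALS3BP, 1.28 for IFITM3, -1.26 for TRIM22, 1.08 for IFIT3 and 0.94 for IFIT1. TRIM22 had only 1 and 3 reads in the SNU398 DPBS libraries, where the pseudocount holds its change near 0. Against HepG2, the effect in SNU475 differed by -2.25 for IFITM2, 1.69 for IFI27, 1.63 for SAMD9L, 1.5 for BST2 and 1.49 for OAS2. The IFI27 value was 0.45 with a pseudocount of 0.1, its ratio to the DPBS mean was larger in HepG2 (32.9) than in SNU475 (19.1), and so was that of OAS2 (9.70 and 5.63); SAMD9L and OAS2 passed the filter on low values through SNU475 alone. Against SNU398, the effect in SNU475 differed by -3.24 for LGALS3BP, -3.02 for IFITM2, 2.5 for IFI27, -2.5 for IFITM3 and 1.66 for SAMD9L. SNU475 was harvested on day 21 and the other lines on day 14, so line and day cannot be told apart in the last 2 sets.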

How the results depend on the processing

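Over 21 comparisons, each with a count of members higher and a count lower, all 42 counts stayed within 1.5 times the reported count with no filter on low values, with a filter of 1 RPKM in 4 libraries and with the letter A or B as a replicate block. With a pseudocount of 0.1 in place of 0.5, 4 members were higher for the combination against decitabine in SNU475 and 2 were above 0 for the SNU475 interaction, and the combination effects of HERC5 (SNU475 against HepG2, -0.68) and IFIT3 (SNU475 against SNU398, -0.19) reversed. With a pseudocount of 1, 4 members were lower for the combination against decitabine in SNU475. Without scaling, 7 members were lower with GSK-126 in SNU398, 2 were below 0 for the HepG2 interaction, 5 were above 0 for the SNU398 interaction and 7 were lower in SNU475 than in SNU398 with DPBS; in DPBS of SNU398 against HepG2, UBE2L6 (0.08), IFIT5 (0), STAT2 (0.19) and JAK1 (0.07) reversed. After quantile normalization, decitabine in HepG2 raised 12 and lowered 17, the combination in HepG2 lowered 7, and 7 were lower in SNU475 than in SNU398 with DPBS. The values that reversed there were, for decitabine in HepG2, HERC5 (-0.05), HERC6 (-0.16), IFITM1 (-0.01), MX1 (-0.16), DDX60 (-0.14), DDX60L (-0.14), SAMD9 (-0.19), PARP9 (-0.11) and XAF1 (-0.10), and, for the combination in HepG2, DDX60 (-0.08), DDX60L (-0.12), SAMD9 (-0.19) and XAF1 (-0.24). Also reversed were DDX60L in SNU398 with decitabine (-0.01) and the combination (-0.05), LGALS3BP in SNU475 with decitabine (-0.20) and the combination (-0.22), and OAS3 in DPBS of SNU475 against SNU398 (-0.03). Among combination effects, HERC6 (0.33), IFIT1 (0.04) and DDX60L (0.35) of SNU475 against HepG2 and HERC6 (0.20) and ADAR (-0.18) of SNU475 against SNU398 reversed. Fitted on the 8 SNU398 libraries alone, the combination against decitabine gave 0 members higher, a fit with fewer libraries. The cause of the other changes was not tested.

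Leaving out 1 library at a time kept 203 of 216 counts within 1.5 times. The exceptions were the combination against decitabine in SNU398 (0 to 2 higher and 6 to 8 lower) and in SNU475 (3 to 7 higher and 1 to 2 lower) and the SNU475 interaction (2 to 4 above 0). The labels do not say whether libraries of the same letter belong together. The deviations of same-letter libraries from their group means correlated at -0.05 to 0.06 in HepG2, -0.12 to 0.24 in SNU398 and -0.08 to 0.13 in SNU475. The replicate block left 1142 single-gene results unchanged in call, with 8 calls lost and 5 gained. Correlations over genes cannot show whether same-letter libraries shared a culture or a preparation. With 2 libraries a group, members resting on few reads in HepG2 and SNU398 are limited by counting error.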
